A study of Mus musculus with 4 samples.

Results

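Keratins are the intermediate filament proteins of epithelial cells, and keratin-associated proteins are the small proteins that embed keratin filaments in the hair shaft. The genes described here are those whose array name starts with Krt or Krtap followed by a digit, a choice made by name alone. This gave 103 genes, 52 of them keratins (Krt) and 51 keratin-associated proteins (Krtap), of the 36161 names on the array. They were measured by 131 of the 55681 probes, and 99 of them had a probe free of outlier flags on every array. The other 4 (Krt16, Krt73, Krt86 and Krtap15) were represented by 1 flagged probe each and were left out of the counts.

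RNA of whole liver from C57BL/6J fetuses at embryonic day 20 was measured in 4 groups of 1 array each. The groups were controls (C) and microsomic animals (M) of either sex, written CF and CM for control females and males and MF and MM for the microsomic ones. Microsomic animals are those of unusually low weight for their colony, arising without any allele or drug, and the controls are of normal weight. The labels do not say whether an array holds RNA of 1 animal or of several, and the study describes newborns, a different substrain and replicate experiments, whereas 1 array per group was analysed here. The design compares M with C within each sex and males with females within M and within C.

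A keratin filament is built from pairs of an acidic (type I) and a basic (type II) chain, and each epithelium uses its own pairs. Hepatocytes hold Krt8 and Krt18 alone, and bile duct cells add Krt7 and Krt19. Krt20 is the keratin of the intestinal surface, Krt5 and Krt14 of the basal epidermis, and Krt1 and Krt10 of its upper layers. Krt25 to Krt28 and Krt71 to Krt74 belong to the inner root sheath of the hair follicle, and Krt31 to Krt40 and Krt81 to Krt86 mostly to the hair shaft. The Krtap proteins are rich in cysteine or in glycine and tyrosine. Apart from the simple epithelial keratins, these genes are known from skin, hair and mucosa and not from liver.

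Each value below is the log2 of the spot signal minus that of the 75th percentile of the array, so that 0 is a spot at that percentile. With 1 array per group there was no replicate spread and no p for a pair of arrays. The only error within an array came from probes printed at 10 spots. Among those with a mean above 2 on this scale, the median SD between spots was 0.174 to 0.238 over the 4 arrays. It was 0.198 to 0.276 between -2 and 2, 0.303 to 0.529 between -4 and -2, and 0.753 to 0.812 below -4, where many skin and hair genes lie. A difference between arrays was taken where at least 1 of both was well above background by the scanner software, and it was counted when over 1.5-fold. A value that was not well above background was replaced by a limit, and the difference is then a lower bound. All 10 hepatocyte markers tested were well above background on all 4 arrays, and the level of Alb ranged from 9.63 on MM to 10.62 on MF.

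Probes of the liver keratins are shown here because a value of these arrays rests on the 60 bases of its probe. Capitals mark windows of 5 bases that hold only C and T with at least 3 C, a feature taken up again below. For Krt18 the first 30 bases are given.
Krt8: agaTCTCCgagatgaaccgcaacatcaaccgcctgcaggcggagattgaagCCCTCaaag
Krt18: ggatggcagagtggtgtccgagactaatga
Krt7: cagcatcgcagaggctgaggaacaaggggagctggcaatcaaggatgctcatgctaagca
Krt19: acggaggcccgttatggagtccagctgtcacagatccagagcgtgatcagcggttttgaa
By the array annotation (mm9), the Krt8 probe printed, the dimmer of its pair, lies on the minus strand at chr15:101828827-101828886 and the brighter one at chr15:101827138-101827197. The Krt18 probe lies on the plus strand at chr15:101862341-101862400 and that of Krt7 at chr15:101253718-101253777. The Krt19 probe lies on the minus strand at chr11:100002392-100002451. No genome of this build was used here, so exon and UTR positions are not given.

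All 6 simple epithelial keratins were well above background on all 4 arrays. Krt18, the type I partner in hepatocytes, was at 5.33 on CF and 5.76 on CM, and 5.61 on MF and 5.68 on MM. No pair of arrays differed by 1.5-fold for Krt18, and the largest of the 4 differences was 0.43 for CM over CF. Krt8, its type II partner, was at 3.84 on CF and 4.37 on CM, and 4.95 on MF and 4.66 on MM with the brighter probe. With the other probe it was at 3.36 on CF and 3.52 on CM, and 4.25 on MF and 3.81 on MM. By both probes MF was the highest array and CF the lowest, MF being 2.17-fold above CF with the brighter probe and 1.85-fold with the other. In males, MM was 1.22-fold above CM with each probe, which is below the threshold.

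Krt19, a bile duct keratin, was at -0.49 on CF and 0.13 on CM, and 0.80 on MF and -0.58 on MM. It was 2.44-fold higher in MF than CF and 1.64-fold lower in MM than CM, so the sexes lay on opposite sides. Krt7, the other bile duct keratin, was at -1.92 on CF and -1.64 on CM, and -1.57 on MF and -2.47 on MM. It passed the threshold for MM, 1.78-fold below CM, and not for MF against CF with a difference of 0.35. Summed over the 7 bile duct markers that are not keratins, the linear level relative to the 75th percentile was 11.3 on CF and 16.1 on CM, and 13.1 on MF and 12.0 on MM. Of the 9 bile duct markers, 4 were higher in MF than CF and 1 lower, with Epcam 2.11 and Cldn7 1.97 higher on the log2 scale. In males 2 were higher in MM than CM and 4 lower. Sox9 and Cftr were the higher ones, by 1.03 and 0.61, and Spp1, at 2.54 on MM and 3.39 on CM, was the largest part of the sum on both. The markers thus moved both ways in each sex. In whole liver RNA, the number of bile duct cells and the RNA per cell cannot be told apart.

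Krt20 was at 2.69 on MF, 2.68 on MM and 2.29 on CM, and at 0.03 on CF. The CF array alone was low, 6.31-fold below MF and 4.80-fold below CM, while MF and MM differed by 0.01. Krt23, a type I keratin of simple epithelia, ran the other way. It was at 3.03 on CF, 1.97 on MM, 1.75 on CM and 1.28 on MF, hence 3.35-fold lower in MF than CF and 2.42-fold lower in CM than CF. The MF array also carried intestinal RNA markers. All 7 intestine markers, Krt20 among them, were over 1.5-fold higher in MF than CF. Cdx2, a transcription factor that defines intestinal epithelium, was at -0.20 on MF and not well above background on the other 3 arrays. Cdx1 was at -0.83 on MF and -5.28 on MM, and not well above background in controls. The summed level of the 6 markers other than Krt20 was 8.47 on CF and 7.35 on CM, and 80.3 on MF and 32.3 on MM. The MM sum was almost all Fabp2, at 4.98 on MM and 2.59 on CM, while Vil1 and Lgals4 were lower in MM than CM, with differences of -1.24 and -0.83. Krt20 was about as high on CM, where Cdx2 was not well above background, as on MF. The part of intestinal RNA in the MF values of Krt8 and Krt19 was not tested.

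**Figure D1:**
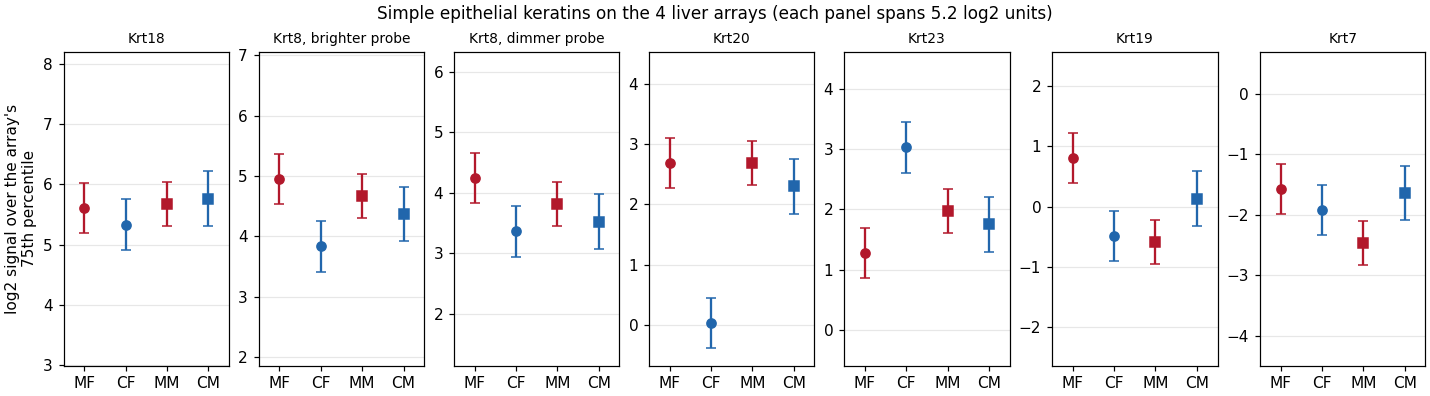
Log2 signal over the 75th percentile of the array (y axis) of the 6 simple epithelial keratins, with both Krt8 probes, on the 4 arrays (x axis; red M, blue C, circles females, squares males). Bars are the SD between spots of one probe on that array (0.367 to 0.454 as root mean square over all probes printed at 10 spots), not a replicate error. Krt20 is low on CF alone, and Krt19 is highest on MF.

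Of the 99 genes with a usable probe, 33 (33.3%) were well above background on all 4 arrays and 38 (38.4%) on none. Over all 35577 genes these shares were 55.5% and 21.4%. Of the 49 keratins 17 were on all arrays, the 6 simple epithelial ones among them. By family, 9 of the 26 keratins on chromosome 11 (the type I cluster) and 8 of the 23 on chromosome 15 (type II genes and Krt18) were well above background on all arrays. Among the skin keratins it was 1 of 3 basal, 1 of 5 suprabasal, 1 of 5 appendage and stress and 2 of 7 mucosal and corneal keratins. It was 0 of 6 inner root sheath and 4 of 14 hair shaft keratins.

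Genes of the upper epidermis were mixed. Krt1 ranged from -6.55 on MF to -5.89 on MM and, like Krt77, was not well above background on any array, whereas Krt10 was on all, from -2.81 on MF to -1.77 on CM. Of the mucosal, corneal and stress keratins, Krt4, Krt6a, Krt12, Krt76 and Krt78 were not well above background on any array. Of 25 epidermis and cornified envelope markers that are not keratins, 10 were well above background on all arrays and 8 on none, Ivl, Krtdap and Dsg1a among the latter. Lor, the main protein of the cornified envelope, ranged from -2.65 on CF to -1.58 on CM. Of 8 hair follicle markers, 3 were well above background on all arrays, and Foxn1, Hoxc13 and Dsg4 on none. The summed level of the epidermis markers was 6.49 on CF and 12.0 on CM, and 36.2 on MF and 8.63 on MM, the MF value resting on Sprr1a at 4.85 against -0.28 on CF. Sprr1a encodes a small cross-linked envelope protein that other stratified epithelia also make.

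**Figure D2:**
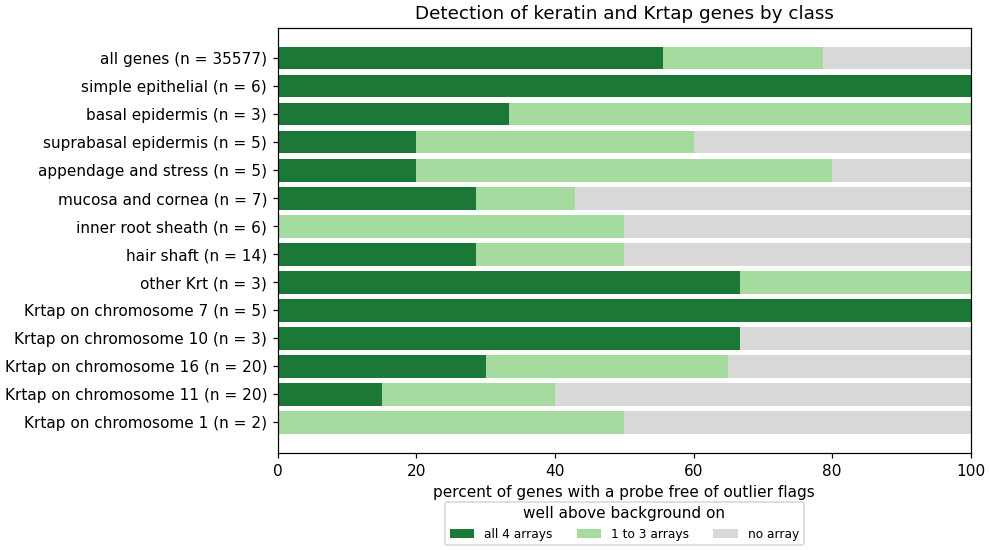
Share of genes (x axis, percent) well above background on all 4 arrays, on 1 to 3 arrays or on none, for each keratin class, for Krtap genes by chromosome and for all genes (y axis, with the number of genes that had a probe free of outlier flags). All 6 simple epithelial keratins and all 5 Krtap genes on chromosome 7 reached all arrays, and 3 of 20 Krtap genes on chromosome 11 did.

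Of the 50 Krtap genes with a usable probe, 16 were well above background on all arrays and 21 on none. By chromosome, 5 of 5 on chromosome 7 (the cysteine-rich Krtap5 genes), 2 of 3 on chromosome 10, 6 of 20 on chromosome 16, 3 of 20 on chromosome 11 and 0 of 2 on chromosome 1 reached all arrays. Krtap10-10 was at 0.30 on CF and 2.97 on CM, and 6.05 on MF and 1.91 on MM. Its probe lies at chr10:77299937-77299996 (mm9) and holds 8 of the C and T windows. The flagged probe of Krtap5-5, at chr7:149415808-149415867, holds 6 of them. Their first bases are printed because these probes gave some of the highest signals of the family.
Krtap10-10: aCCCTTCCCTgTCCTCaccgCCCTCTactc
Krtap5-5: CTCTCCacctgCTCCTCTgacctactcca
Of the 13 unflagged member probes with 4 or more such windows, 8 (61.5%) were well above background on all arrays, against 31 of 112 (27.7%) with fewer. Over all probes of the array it was 61.5% of 4466 and 44.6% of 49963. The part of these windows in the signal of single genes was not tested.

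**Figure D3:**
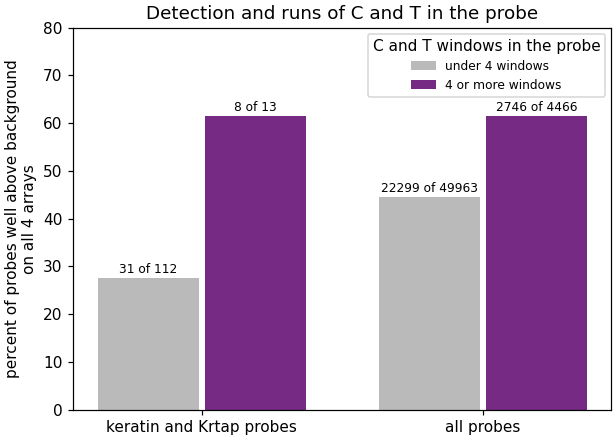
Percent of probes well above background on all 4 arrays (y axis) for keratin and Krtap probes and for all probes (x axis), by the number of C and T windows in the probe. Probes with 4 or more windows reached 61.5% in both sets, and the keratin and Krtap probes with fewer reached 27.7%.

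In females, 9 of 26 keratins compared were over 1.5-fold higher in MF than CF and 2 lower, against 19.9% higher and 21.1% lower (40.9% in all) of all 25538 genes. The median difference of the keratins was 0.25, against -0.04 over all genes. Beside Krt20, Krt8 and Krt19, the higher ones included Krt42, a keratin of the nail unit, at -0.77 on MF and -2.55 on CF (3.43-fold). Krt81, a hair shaft keratin, was at -2.03 on MF and -3.63 on CF (3.05-fold). Krt14, the basal epidermal type I chain, was at -1.76 on MF and -3.08 on CF (2.51-fold). Its partner Krt5 was at -4.30 on MF and not well above background on CF (at least 2.27-fold), and Krt15 was at -4.26 on MF and not well above background on CF (at least 2.33-fold). Krt5 and Krt15 could be compared because MF was well above background, so they could count only as higher. With normexp the Krt15 difference was 0.31, within the threshold, and the other Krt5 probe was not well above background on MF or CF. Krt74, of the inner root sheath, was 1.60-fold lower in MF at -5.19 against -4.51, a difference below the SD between spots at that level. Krt6b, next in order, was within the threshold by its brighter probe (-0.41) and 2.13-fold lower in MF by the other (-1.09).

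The Krtap genes moved both ways between MF and CF: 4 of 20 were higher and 6 lower, with a median of -0.19. Krtap10-10 was 54.0-fold higher on MF. Krtap10-4, with 11 C and T windows, was at -2.17 on MF and -3.74 on CF (2.98-fold), and Krtap5-3 at -2.38 and -3.79 (2.67-fold). Krtap16-5 (Krtap19-3 in RefSeq) was at -3.68 on CF and not well above background on MF, at least 5.12-fold lower. It could be compared through CF alone, so it could count only as lower. The MF array carried an outlier flag on 6 member probes and CF on 0, and 916 non-uniform spots in all against 182 on CF. With the deposited signals unscaled, 14 keratins were higher and 1 lower, and 6 Krtap genes were higher and 3 lower. The share higher among Krtap calls was 40.0% as reported and 66.7% unscaled. With normexp it was 3 of 6, and with the GC trend removed 4 of 8. Among keratins it went from 81.8% to 93.3% unscaled.

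In males more members were lower than higher in MM, a direction that turned for the keratins when signals were left unscaled. Of 28 keratins compared, 3 were over 1.5-fold higher in MM than CM and 9 lower, against 17.7% higher and 23.1% lower (40.8% in all) of 26315 genes. Krt79, a keratin of the follicle opening and sebaceous duct, was at -3.49 on MM and -1.68 on CM (3.51-fold lower). Krt2, of the upper epidermis, was at -4.63 and -2.71 (3.79-fold lower), and Krt34, of the hair shaft, was at -3.20 on CM and not well above background on MM (at least 5.06-fold lower). Krt6b, a stress keratin, was at -2.54 on MM and not well above background on CM, at least 3.55-fold higher. Krt75, of the companion layer of the hair follicle, was at least 2.26-fold higher in MM, and Krt85 was 1.76-fold higher by its brightest probe. Krt34 could be compared through CM alone, so it could count only as lower. Krt6b and Krt75 could be compared through MM alone, so they could count only as higher.

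Of 27 Krtap genes compared in males, 17 were lower in MM than CM and 2 higher. The median was -0.87, against 0.00 over all genes. Krtap8-1 was at -4.81 on MM and -1.11 on CM (13-fold lower), and not well above background in females. Krtap9-3 was at -3.08 on CM and not well above background on the other 3 arrays, at least 6.72-fold lower in MM. Krtap26-1 was at least 1.84-fold higher in MM, and Krtap31-2 differed by 0.25 as a bound. Krtap9-3 could be compared through CM alone, so it could count only as lower. Krtap26-1 and Krtap31-2 could be compared through MM alone, so they could count only as higher. Most of these genes were dim. Among the 25 Krtap genes with a mean below 0, 15 were lower and 2 higher, against 30.5% and 19.5% of all 15964 genes in that range. In females, of 18 such Krtap genes 3 were higher and 5 lower, against 19.1% and 24.1% of all genes in that range. The CM array had the highest limit of the 4, at -4.69 against -6.03 on MF, and the smallest share of spots well above background. Unscaled, 8 Krtap genes were lower and 4 higher, and the share of higher calls went from 10.5% to 33.3%. Among the keratins it went from 25.0% to 64.3% unscaled, to 46.2% with normexp and to 40.0% with the GC trend removed.

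Set against each other, 41 members could be compared in both sexes. Krtap11-1 and Krtap5-4 were the members well above background on all arrays that passed 1.5-fold the same way in both, and with bounds included Krt75, higher in M, did so as well. Krt75 was not well above background in controls, so it could count only as higher in M. With normexp its MF minus CF difference was 0.58, just within the threshold. This made 3 of 41, and over all genes 6.98% of 23967 did so. Krtap11-1, a hair matrix protein, was at 1.40 on CF and 0.97 on CM, and 0.00 on MF and 0.20 on MM. Both M arrays lay below both C arrays, by 2.64-fold in females and 1.70-fold in males. Its second probe was not well above background on any array. Krtap5-4, whose probe holds 7 C and T windows, was at -2.74 on CF and -2.75 on CM, and -4.09 on MF and -3.84 on MM. Here too both M arrays lay below both C arrays, 2.55-fold and 2.14-fold.

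Of the same 41 members, 7 passed the threshold in opposite directions in both sexes (9.85% of all genes did). Those higher in MF than CF and lower in MM than CM were Krt14, Krt19, Krtap10-10, Krtap10-4, Krtap5-3 and, with a bound, Krtap16-8. Krtap20-2 ran the other way, and its probes disagreed. The Krtap16-8 probe printed at 10 spots was within the threshold in both sexes, at 0.10 and -0.41. Krt19 MM minus CM was within the threshold in some settings, at -0.152 unscaled.

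**Figure D4:**
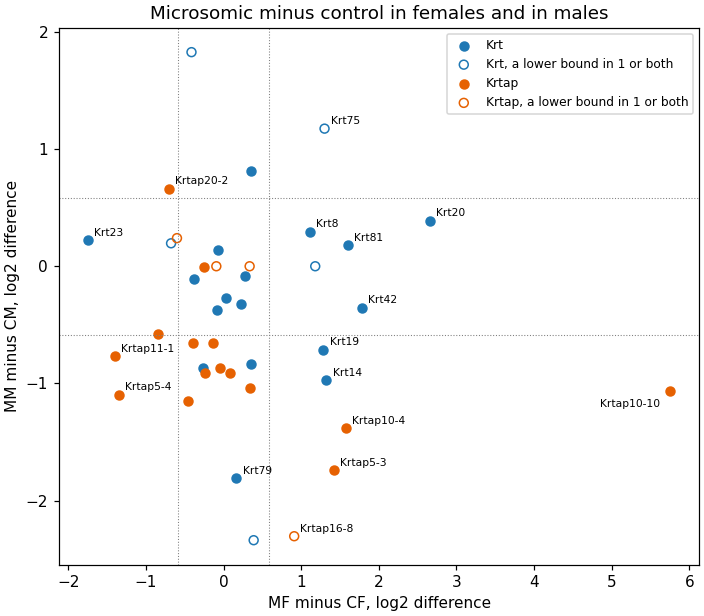
Log2 difference MF minus CF (x axis) against MM minus CM (y axis) for the 41 members compared in both sexes; open symbols have a lower bound in at least 1 sex, with a bound under 1-fold drawn at 0, and dotted lines mark 1.5-fold. Krtap11-1 and Krtap5-4 lie low in both, and Krtap10-10 stands at 5.76 in females and -1.06 in males.

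The model that uses both sexes as replicates tested 32 members among 19303 genes well above background on all arrays. By limma with Benjamini-Hochberg adjustment, 0 members were called for M vs C (0.0% of all genes), and the smallest adjusted p among them was 0.995. At an unadjusted p under 0.05 there were 3 members (4.42% of all genes): Krt20, Krtap11-1 and Krtap5-4. Their M minus C differences were 1.52 ± 0.59 for Krt20, -1.08 ± 0.43 for Krtap11-1 and -1.22 ± 0.41 for Krtap5-4. The ± is the moderated SE of limma, which borrows variance from all genes tested, and the fit leaves 1 residual degree of freedom. It is not the spread of the single gene. Krt8 was at 0.70 ± 0.44 and Krt18 at 0.09 ± 0.42. The differences of Krt20 were 2.66 in females and 0.39 in males, CF being the one low array.

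Between control males and females, 12 of 24 keratins were higher in CM than CF and 2 lower, and 15 of 24 Krtap genes were higher and 2 lower. Over all 25204 genes it was 26.6% higher and 19.7% lower (46.3% in all). Between M animals, 14 of 31 keratins were higher in MM than MF and 7 lower, and 12 of 26 Krtap genes were higher and 2 lower, against 28.9% and 20.5% (49.5% in all) of 26735 genes. Among the dim genes, with a mean below 0, 14 of 22 Krtap genes were higher in CM than CF (35.9% of all such genes, 20.8% lower), and 12 of 24 in MM than MF (33.5%, and 18.1% lower). Of the 12 Krtap genes higher in MM than MF, 7 were not well above background on MF, so they could count only as higher. With both arrays well above background, 5 of 19 Krtap genes were higher in MM than MF and 2 lower. Between controls, the same filter left 10 of 15 higher in CM and 1 lower. With normexp, 1 Krtap gene was higher in MM than MF and 2 lower. The Krtap4-1 difference, MM minus MF, was -0.39, among the 3 largest falls of the family and within the threshold. Among controls, the keratin calls were 85.7% higher as reported, 71.4% after median centring or GC correction and 73.3% with normexp. For Krtap genes they were 88.2%, and 76.9% and 69.2% after median centring and GC correction. In M the keratin share was 66.7%, and 52.4% and 55.0% after these corrections, and the Krtap share 85.7%, and 70.0% after either.

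Of 45 members compared within both C and M, 11 were over 1.5-fold higher in males in both and 0 lower in both. With normexp, 5 keratins and 1 Krtap gene were higher in MM than MF at all, so not all of the 11 were kept. Over all 24053 genes, 9.68% were higher in males in both and 5.28% lower. Both comparisons use different arrays, but all females lay in 1 row of the slide and all males in the other, so sex and row cannot be told apart. Likewise both M arrays lay in one column of the slide and both C arrays in another, so weight group and column cannot be told apart. The 11 were Krt2, Krt10, Krt13, Krt17, Krt80, Krt222, Krtap8-1, Krtap9-5, Krtap16-1, Krtap16-8 and Krtap16-10. By the brightest probe, Krt2, Krt17, Krtap8-1, Krtap16-1 and Krtap16-10 were not well above background in females. They could be compared through the male arrays alone, so they could count only as higher in males. Krtap16-8 had this limit on CF, and its probe printed at 10 spots was within the threshold for MM minus MF (0.29). Krt17, a keratin of hair follicles and stressed epidermis, was at -2.72 on CM and -4.01 on MM and not well above background in females. It was at least 6.77-fold higher in CM than CF and at least 4.07-fold in MM than MF. With normexp the CM minus CF difference of Krt17 was 1.51, and MM minus MF fell within the threshold for Krt17 (0.50) and Krt2 (0.26). Krt13, of the oral and oesophageal lining, was at -0.51 on CM, -0.83 on MM, -1.75 on MF and -1.98 on CF, both males lying above both females. The second Krt13 probe was not well above background on any array.

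Krt222 had the largest male excess of the keratins that was measured on all arrays. It was at 2.33 on MM, 3.20 on CM, -0.78 on MF and -0.51 on CF, 8.65-fold higher in males among M and 13.1-fold among C. Its other probe was not well above background on any array. In limma, 0 members passed the adjusted threshold for males vs females, and 3 of 32 an unadjusted p under 0.05 (9.36% of all genes). For Krt222 the male minus female difference was 3.41 (unadjusted p 6.53e-05, adjusted p 0.0845). Across the other settings the adjusted p ranged from 0.00373 to 0.384, and with median centring it was 0.00822, so the call depends on the setting. The probe, on the minus strand at chr11:99095480-99095539, holds a run of 22 alternating A and C, shown here in capitals with its flanks (bases 18 to 47).
Krt222: ttgtACACACACACACACACACACACccgg
On the array, 25 probes of other names share 20 or more bases with it. Of these, 22 were free of flags, and all 22 were over 1.5-fold higher in CM than CF and 21 of 22 in MM than MF. Their medians were 2.89 and 2.74. Counted by sequence alone and with the Krt222 probe left out, 20 probes held at least 20 alternating A and C. All 20 were over 1.5-fold higher in males in both comparisons, against 3461 of 32479 probes without the run. The values of Krt222, 3.71 and 3.11, were inside the range of these 20, 2.06 to 3.87 for CM minus CF and 0.74 to 3.78 for MM minus MF. Whether the probe measures Krt222 RNA was not tested.

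**Figure D5:**
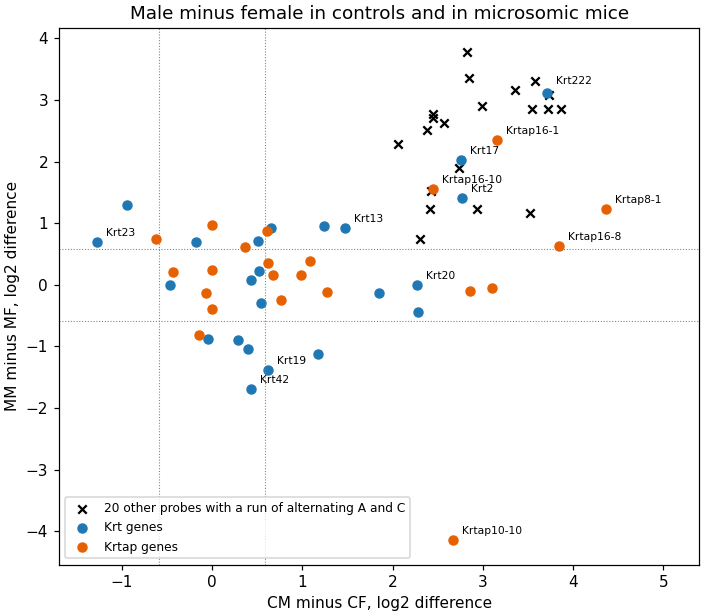
Log2 difference CM minus CF (x axis) against MM minus MF (y axis) for the 45 members compared in both, with the 20 probes of other genes that hold a run of alternating A and C (crosses); dotted lines mark 1.5-fold. Krt222 lies among the crosses, all of which are above 0.74 on both axes.

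Krtap genes of chromosome 16 made up 4 of the 11 male-high members, Krtap8-1 among them. Of the Krtap genes on this chromosome, 7 of 10 compared were higher in CM than CF and 2 lower, with 5 of these calls being bounds. In MM vs MF 8 of 12 were higher and 0 lower, with 6 bounds. Over all genes 26.6% were higher in CM than CF and 28.9% in MM than MF. Krtap16-1 (Krtap19-2 in RefSeq) was at -2.19 on CM and -3.69 on MM, and Krtap16-10 (Krtap16-3 in RefSeq) at -3.03 and -4.48. Neither was well above background in females, and both were at least 2.92-fold higher in males in each comparison. With normexp the MM minus MF difference was 0.63 for Krtap16-1, past the threshold, and 0.29 for Krtap16-10 and 0.23 for Krtap8-1, within it. Krtap16-8 (Krtap6-5 in RefSeq) was at -0.87 on CM, -3.18 on MM, -3.80 on MF and not well above background on CF. The probes are shown because they share repeats with one another. Capitals mark the longest stretch shared by Krtap16-1 and Krtap16-10 (25 bases), and by Krtap16-8 and Krtap6-1 (23 bases).
Krtap16-1: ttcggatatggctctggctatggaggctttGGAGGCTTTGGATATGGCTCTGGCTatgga
Krtap16-10: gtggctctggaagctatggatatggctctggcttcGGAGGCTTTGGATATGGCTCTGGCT
Krtap16-8: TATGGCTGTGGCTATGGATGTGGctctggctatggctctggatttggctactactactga
Krtap6-1: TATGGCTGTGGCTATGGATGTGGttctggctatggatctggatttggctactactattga
They lie at chr16:88874321-88874380, chr16:88962906-88962965, chr16:89047852-89047911 and chr16:89032140-89032199 (mm9), the last on the plus strand and the others on the minus strand. Krtap16-1 and Krtap16-10 had like values, with MM minus CM at -1.50 and -1.45. Krtap6-1 was at -3.89 on CF and -3.13 on CM, and -3.80 on MF and -4.04 on MM, all 4 arrays within 1 log2 unit, unlike Krtap16-8. A probe named NAP100095-001, which shares 26 bases with Krtap16-1, was at -3.39 on MM and not well above background on CM. In females it was well above background, at -3.90 on MF and -4.20 on CF, unlike Krtap16-1 and Krtap16-10. In all, 15 of the 131 member probes share 20 or more bases with a probe of another name, 12 of them Krtap probes. The values of such probes may include RNA of the sister genes and are uncertain in that respect.

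Some genes with several probes gave opposite values. Of 22 such genes, 0 of 8 with 2 or more probes compared went opposite ways past 1.5-fold in MF vs CF, 2 of 10 in MM vs CM, 2 of 10 in CM vs CF and 2 of 11 in MM vs MF. These were Krt2, Krtap20-2 and Krtap5-5. The share over all genes with several probes was not counted, so it is open whether these families differ from the rest of the array. Capitals mark the longest stretch shared by all unflagged probes of Krtap5-5 (11 bases), which probes a and c hold again in lower case. By the annotation (mm9), probes a and c overlap, at chr7:149415305-149415363 and chr7:149415298-149415357.
Krtap5-5 probe a: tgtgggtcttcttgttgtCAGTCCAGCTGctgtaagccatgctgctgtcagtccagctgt
Krtap5-5 probe b: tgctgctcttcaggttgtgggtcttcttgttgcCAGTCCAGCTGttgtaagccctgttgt
Krtap5-5 probe c: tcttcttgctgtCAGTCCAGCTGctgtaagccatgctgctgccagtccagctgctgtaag
Probe a was well above background on CM alone, at -2.21, and at least 6.85-fold lower in MM. Probe b was at -2.71 on CF and -2.86 on CM, and -2.95 on MF and -3.78 on MM, 1.88-fold lower in MM than CM. Probe c was at -3.52 on MM and not well above background on CM, at least 2.24-fold higher in MM. Krtap20-2 had 4 probes, and its brightest was 1.58-fold higher in MM than CM while another was 1.93-fold lower. Krt2 was at least 2.64-fold higher in MM than MF by one probe and at least 1.97-fold lower by the other. Krtap16-8 had a second probe printed at 10 spots, whose SD between spots was 1.55 on CF and 1.33 on CM, and 1.22 on MF and 1.18 on MM. Its means lay between -4.14 and -3.34, closer together than its own spots.

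Krt85, a type II chain of the hair shaft, was the one hair keratin near the 75th percentile on all arrays. Its brightest probe was at 0.32 on CF and -0.14 on CM, and 0.67 on MF and 0.67 on MM, with no position in the annotation. Krt81 was well above background on all arrays (-3.63 to -2.03) and Krt83 (Krt87 in RefSeq) on none. A second Krt85 probe, with 8 C and T windows, was at -0.96 on CF and -0.87 on CM, and -0.91 on MF and -1.30 on MM. The remaining Krt85 probe was well above background on MM alone, and the annotation places it at chr15:101261695-101261754, near the Krt83 probe at chr15:101263556-101263615 and away from the second Krt85 probe at chr15:101346117-101346176. Other hair shaft keratins on all arrays were Krt31, with 7 C and T windows and a range from -2.28 to -1.77, and Krt82, from -3.15 to -2.43. Neither passed 1.5-fold between M and C in either sex.

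Of 10 genes of desmosomes and keratin linkers, which anchor keratin filaments, 7 were well above background on all arrays (55.5% of all genes). Of 9 compared, 4 were higher in MF than CF and 0 lower (19.9% and 21.1% of all genes), and 3 were higher in MM than CM and 3 lower (17.7% and 23.1%). Dsp, the linker of keratins to desmosomes, was at 1.61 on CF and 1.33 on CM, and 2.53 on MF and 2.29 on MM. Both M arrays lay above both C arrays for Dsp, by 0.92 in females and 0.96 in males. Pkp1, of stratified epithelia, was not well above background on any array.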

How the data were processed

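Cy3-labelled cRNA from liver was run on 1-colour Agilent 8x60K mouse arrays, 1 per group (CF, CM, MF, MM). The authors used Feature Extraction 10.7.3.1. Their deposited signal is a linear intensity, background-subtracted and divided by a detrending ratio that the authors' software wrote beside it, and arrays were not normalized to one another. The value table equalled this signal on 4 of 4 arrays (62976 spots, relative tolerance 1e-06). The number of arrays limits the precision.

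Members were the non-control names starting with Krt or Krtap and a digit. The members, lists, naming rule and tests were chosen with earlier results of these data known. Here, log2 of the signal minus the 75th percentile of each array was used (percentiles 675.9 for CF, 627.6 for CM, 892.8 for MF and 925.0 for MM). Outlier-flagged spots (1754 in the union over arrays) were dropped, spots of a probe were averaged and a gene was its brightest probe. For detection, any probe of the gene counted. Bounds were taken against the lowest signal well above background or the signal of the probe itself. limma 3.58.1 in R 4.3.3 was fitted with weight group and sex, and tested on simulated data. Of 308 negative control spots, 2 to 7 per array were flagged well above background.

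Named were the liver keratins, members over 1.5-fold the same way in both sexes, the 3 largest rises and falls of each family per comparison, members whose probes disagreed, and up to 4 genes per marker list. Krt1, Krt4, Krt5, Krt6a, Krt10, Krt12, Krt13, Krt14, Krt31, Krt76, Krt77, Krt78, Krt80, Krt82, Krt83, Krtap6-1 and Krtap9-5, some marker genes and the runs of A and C were named after their values were seen. Of 103 names, 93 equalled a RefSeq symbol (GRCm38.p6 table, used for names), 8 were found under another symbol by accession and 2 had no match. An equal name was not always the same gene by accession. Where the accession of a named member led to another symbol, that symbol is given beside it. Alternatives were 4 scalings, 2 filters on dim probes, the mean over probes, flagged spots kept, a 2-fold threshold, GC and position trends removed, and probes with 4 or more C and T windows left out. Leaving out each array in the detection counts was added after seeing the data. The sequence of 1 probe is not reported here.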

Additional observations from a re-analysis of the deposited data

Results flagged for a closer look

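Of the members compared in both sexes, 7 passed 1.5-fold in opposite directions in females and males, a difference that was not tested since each sex has 1 array of M and 1 of C. The log2 differences between M and C, females first and males second, were 1.33 and -0.97 for Krt14, 1.29 and -0.71 for Krt19, and 5.76 and -1.06 for Krtap10-10. They were 1.57 and -1.38 for Krtap10-4, 0.91 as a bound and -2.31 for Krtap16-8, -0.71 and 0.66 for Krtap20-2, and 1.42 and -1.74 for Krtap5-3. By the Krtap16-8 probe printed at 10 spots they were 0.10 and -0.41, both within the threshold.

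Probes with an outlier flag were not used in the comparisons, and 5 of the 6 such member probes were over 1.5-fold higher on an M array than on its control. Each of these rises rested on a flagged spot of the M array. In males, 4 of the 5 probes with no flag on MM or CM were over 1.5-fold lower in MM, with differences of -1.11 for Krt73, -1.23 for Krt86, -2.42 as a bound for Krtap15 and -2.15 for Krtap5-5. Neither share was counted over all flagged probes of the array. Whether these members differ from other flagged probes was thus not tested. MF minus CF was 3.69 for Krt16, a stress keratin whose probe holds 7 C and T windows, with 0.67 on CF and 3.36 on CM, and 4.36 on MF and 3.76 on MM. It was 3.20 for Krt73, 3.41 for Krtap15 as a bound and 4.36 for the Krtap5-5 probe with 6 windows. The flag was set on MF for each of these 4. For a Krtap8-2 probe (Krtap19-5 in RefSeq), flagged on MF and MM, it was 1.88 in females and 2.76 in males.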

How the results depend on the processing

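No paired analysis was possible because each group has 1 array. With no filter on dim probes 24 keratins (MF vs CF), 31 (MM vs CM) and 28 (CM vs CF) passed, and 24, 33 and 32 Krtap genes in the same order, with 23 for MM vs MF. At 2-fold, keratins numbered 7 in MM vs CM and 11 in MM vs MF, and Krtap genes 6 in MF vs CF, 11 in each comparison with CM, and 6 in MM vs MF. With both arrays well above background, 9 keratins and 11 Krtap genes passed in CM vs CF, and 7 Krtap genes did among M. With normexp, MM vs MF held 8 keratins and 3 Krtap genes, and MF vs CF 6 Krtap genes. Unscaled, MM vs CM held 12 Krtap genes. With normexp, Krt18 MF minus CF was -0.68 and Krt8 MM minus CM was -0.44, against 0.27 and 0.29 as reported. The cause was not tested. The other planned counts stayed within 1.5 times, the counts on all arrays too, and leaving out 1 array gave 17 to 19 keratins and 16 to 19 Krtap genes. The other differences of the liver keratins stayed within the spot spread, taken as a root mean square over all brightness (0.367 to 0.454 per array). This is wider than the 0.174 to 0.238 of probes above 2, where Krt8 and Krt18 lie. Krt18 MF minus CF was -0.27 after quantile normalization, against 0.27 as reported. Krt18 MM minus CM was 0.48 with normexp, against -0.09.

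Of the differences of other named members, 6 reversed. With normexp, Krt19 CM minus CF was -0.059. With the mean over probes, which brings in the disagreeing probes, Krt2 MM minus MF was -0.45 and the Krt85 log2 difference, MM minus CM, was -0.053. In the same setting, Krtap20-2 MM minus CM was -0.71 and CM minus CF 0.23, and Krtap5-5 MM minus MF 0.58. The others were 926 within the spread and 64 moved. The median of all genes was -0.09, -0.03, 0.02 and 0.08 in MF minus CF, MM minus CM, CM minus CF and MM minus MF. Unscaled, it was 0.32 and 0.53 for the M minus C pairs, and median centring gave 0.21 for MM minus CM and -0.40 for CM minus CF. In limma, 0 members were called for M vs C in every setting tried, with 1 passing the methods' threshold on an unadjusted p in some.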
